A study of Mus musculus with 4 samples.

Results

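Differentiating spermatogonia are the germ cells that have left the stem cell pool of the testis and divide by mitosis before they enter meiosis. Here they were chosen by their UMI counts (UMIs are unique molecular identifiers, the molecules counted in each cell barcode). A barcode needed at least 500 genes, at most 20% mitochondrial UMIs, at least 2 UMIs of the germ cell genes Ddx4 and Dazl, and at least 4 UMIs of the markers Kit, Sohlh1 and Dmrtb1 together. It could hold at most 2 UMIs of Zbtb16, Nanos3, Egr4, Gfra1, Ret and Upp1, at most 4 of Stra8, at most 2 of Dmc1, Rad51ap2 and Terb1, and at most 4 of Ldhc and Fabp9. The Sertoli cell genes Aard, Cst9 and Cldn11 had to stay under 0.3% of its UMIs. Of 24851 barcodes, 1031 met these limits. The levels of those 20 genes, and any contrast with germ cells chosen by the same genes, are therefore a description of the choice.

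KIT is the receptor for stem cell factor, and its appearance on spermatogonia accompanies the step from the undifferentiated to the differentiating state, which retinoic acid drives. SOHLH1 is a basic helix-loop-helix transcription factor that acts at this step. DMRTB1, also called DMRT6, is a DM-domain transcription factor of later differentiating spermatogonia that takes part in the passage from mitosis to meiosis. STRA8 is induced by retinoic acid and marks both the start of differentiation and, at a higher level, the entry into meiosis.

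The series held 4 single-cell libraries, 1 per group, all from C57BL/6 mice carrying an Acr-Gfp transgene. The 2-day culture and the 7-day culture began from testes of 7 days postpartum (dpp), grown as fragments on agarose gel in α-MEM with AlbuMAX beneath a PDMS chip. The remaining groups were uncultured testes of 9 dpp and 14 dpp. The cultures gave 45 members at 2 days and 81 at 7 days, and the uncultured testes gave 449 at 9 dpp and 456 at 14 dpp. The labels do not say how many animals went into a library and name no batch. With 1 library per group, a library and its condition cannot be told apart, no test was possible, and all intervals given below are 95% intervals that cover counting error only. Each culture was set beside the uncultured testis of the same total age: the 2-day culture over 9 dpp and the 7-day culture over 14 dpp, called the 2-day and the 7-day pair. Values for the 4 groups are given in the order 2-day culture, 7-day culture, 9 dpp and 14 dpp. A level is the number of UMIs of a gene per 1000000 UMIs, both summed over the members of a library (CPM), and a log2 ratio is that of CPM + 1, with the interval of the plain ratio.

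The libraries differed in depth. The barcodes that passed the limits on genes and mitochondrial UMIs held 33799069, 38192203, 60474587 and 58069236 UMIs. The members alone held 273127, 657048, 6015288 and 4769020 UMIs, with medians per member of 5757, 7746, 12718 and 9630.5 UMIs. A gene with 0 UMIs could thus lie at up to 11.0, 4.57, 0.499 and 0.629 CPM (3 UMIs of the members' total). Because the limits are in raw UMIs, a shallow barcode must give a larger share of its UMIs to the markers and may give a larger share to Stra8 and to the undifferentiated genes than a deep one. Between 35 and 86 barcode sequences were shared by any pair of libraries, and 1 of them was a member. A label passage on preparing the libraries mentions female gonads, whereas the members held UMIs of chromosome Y genes in all 4 libraries, at 0.0505% to 0.0612% of nuclear UMIs.

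The 3 markers did not hold the same place in each library. Sohlh1 stood at 633, 230, 232 and 215 CPM, and Dmrtb1 at 47.6, 314, 203 and 289 CPM. The 2-day culture thus had the highest Sohlh1 and the lowest Dmrtb1, and the other libraries were closer together. Kit was more even, at 84.2, 68.5, 67.3 and 60.6 CPM. Both genes that diverged lie on the minus strand, Sohlh1 on chr2:25842995-25847248 and Dmrtb1 on chr4:107676290-107684230 (GENCODE M21 on GRCm38). Their promoters are shown because the pair went opposite ways. The search was for CACGTG, the E-box bound by many basic helix-loop-helix factors, which reads the same on both strands. The 250 bases before each start site are from RefSeq (GRCm38.p6), 5′ to 3′ on the gene's strand, with CACGTG in capitals; the Sohlh1 window is chr2:25847249-25847498 and the Dmrtb1 window, before the second of its listed start sites, is chr4:107684231-107684480.
Sohlh1: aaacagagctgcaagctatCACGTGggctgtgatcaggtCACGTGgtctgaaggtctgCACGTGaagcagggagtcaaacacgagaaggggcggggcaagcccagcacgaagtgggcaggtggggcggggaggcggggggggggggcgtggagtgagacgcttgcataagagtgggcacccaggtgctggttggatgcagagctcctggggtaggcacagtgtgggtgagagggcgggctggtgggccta
Dmrtb1: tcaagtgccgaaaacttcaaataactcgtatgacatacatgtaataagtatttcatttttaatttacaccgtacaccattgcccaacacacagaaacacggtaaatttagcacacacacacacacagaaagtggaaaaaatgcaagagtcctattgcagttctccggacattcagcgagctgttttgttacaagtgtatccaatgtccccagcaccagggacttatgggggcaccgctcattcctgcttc

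The Sohlh1 window holds CACGTG 3 times, beginning 231, 211 and 192 bases before the start site, and the Dmrtb1 window holds it 0 times. Of 32851 mouse promoters searched in the same way, 1978 (6.02%) held at least 1 copy and 20 (0.0609%) held 3 or more. Among promoters of genes measured in the contrast of members with undifferentiated spermatogonia, described below, 960 of 10805 (8.88%) held a copy. The motif was in 47 of 563 promoters (8.35%) of the genes more than 2-fold higher in members than in undifferentiated spermatogonia, and in 71 of 851 (8.34%) of those more than 2-fold lower. These are letter matches, and binding was not measured.

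Counted cell by cell, the leading marker also differed between libraries. Members with more Sohlh1 than Dmrtb1 UMIs outnumbered those with the reverse by 42 to 1 in the 2-day culture and by 201 to 176 at 9 dpp. Those led by Dmrtb1 were the more numerous in the 7-day culture, at 41 against 22, and at 14 dpp, at 247 against 126. All 3 markers were detected together in 2, 25, 199 and 173 members. Members that only just met the marker minimum, with exactly 4 UMIs, numbered 27, 44, 110 and 157, and the barcodes just outside it, with 3, numbered 67, 82, 133 and 175. Those just outside were close in Esx1, a gene the limits did not use: 86.0 CPM outside against 109 CPM inside for the 2-day culture, 367 against 453 CPM for the 7-day culture, and 437 against 453 CPM and 471 against 444 CPM for the uncultured 9 dpp and 14 dpp testes.

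As a share of germ cell barcodes, the members were fewer in each culture than in its uncultured partner, and the size of that gap depended on depth. Without allowance for depth they made up 1.50% (45 of 2998), 3.05% (81 of 2656), 15.7% (449 of 2865) and 10.5% (456 of 4345). With every barcode thinned at random to 3000 UMIs, and shallower ones left out, the shares were 1.06% (19 of 1799, Clopper-Pearson interval 0.637 to 1.64), 0.750% (17 of 2266, 0.438 to 1.20), 2.45% (61 of 2488, 1.88 to 3.14) and 1.44% (53 of 3692, 1.08 to 1.87). These shares are of a single draw. The log2 ratio of the thinned shares was -1.22 (-1.95 to -0.48) for the 2-day pair and -0.94 (-1.72 to -0.15) for the 7-day pair, against -3.38 and -1.78 unthinned. Thinned to 2000 UMIs, both intervals span 0, at -0.65 (-1.86 to 0.55) and -1.07 (-2.50 to 0.37). The 7-day over the 2-day culture gave -0.49 (-1.43 to 0.45) thinned and 1.02 unthinned, so the direction between the cultures turned with depth. In vivo, 14 dpp over 9 dpp gave -0.77 (-1.30 to -0.25) thinned to 3000 UMIs and 0.06 thinned to 5000 UMIs. Over 100 repeated draws at 3000 UMIs the mean shares were 1.23%, 0.934%, 2.06% and 1.69%, which gave log2 ratios of -0.75 and -0.86 in the 2 pairs, -0.29 in vivo and -0.40 between cultures. With a marker minimum of 6 UMIs in place of 4, the thinned ratio of the 7-day pair turned to 0.70, but this rested on 1 barcode in each library. Thinning changes who qualifies: 10, 10, 35 and 37 of the original members still met the limits.

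**Figure D1:**
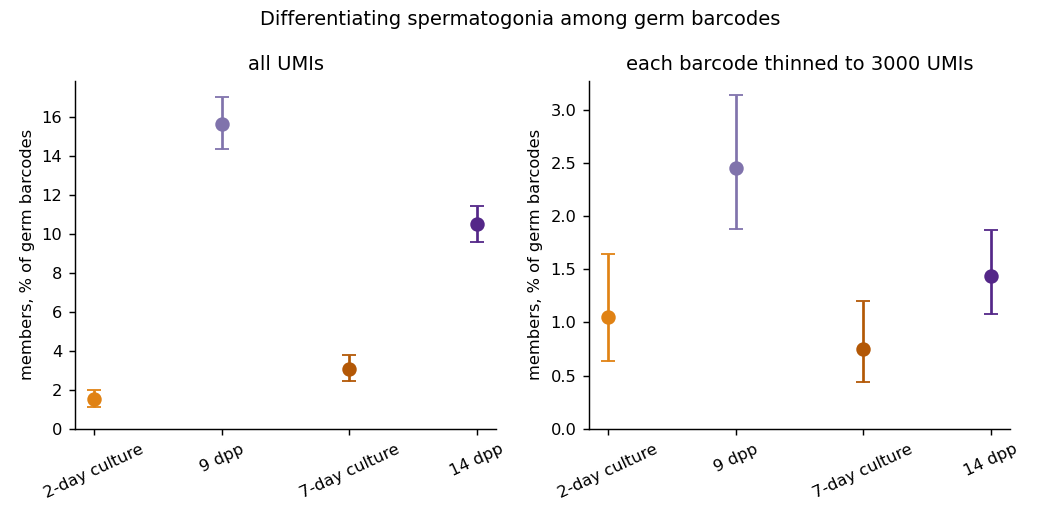
Differentiating spermatogonia as a percentage of germ cell barcodes in each library, from all UMIs (left) and with each barcode thinned to 3000 UMIs (right, on its own scale); points are single libraries and bars are 95% Clopper-Pearson intervals. The 9 dpp library was highest on both sides, at 15.7% and 2.45%, and the gap to the cultures was smaller after thinning.

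The identity of the members was checked against genes that the limits did not use. Undifferentiated spermatogonia were taken as barcodes with at least 4 UMIs of the 6 undifferentiated genes and at most 2 of the 3 markers, which gave 32, 51, 152 and 111 barcodes. Barcodes with at least 5 Stra8 UMIs formed the Stra8-high neighbour and numbered 1149, 600, 581 and 862. The contrasts used the 7-day culture, 9 dpp and 14 dpp, since the 2-day culture held under 50 members, and a gene was counted when it was more than 2-fold apart in the same direction in all 3. Over the undifferentiated cells, 536 of 10708 measured genes were higher (5.01%) and 860 were lower (8.03%). The neighbours were cut with the same 20 genes, so these counts describe the choice and its co-expressed genes.

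Genes that carried the difference from undifferentiated cells were led by Tbx1, a T-box transcription factor on chr16:18580979-18590671, whose members stood at 54.9, 92.8, 129 and 117 CPM beside 0, 0, 2.06 and 4.10 CPM. Undifferentiated cells of both cultures thus had no Tbx1 UMI. Prss50, a serine protease gene expressed in testis, lay at 124, 275, 112 and 172 CPM in members against 0, 5.11, 4.63 and 9.85 CPM. Its 2-day level rests on few members: the 42 led by Sohlh1 held 19.4 CPM and the 1 led by Dmrtb1 held 2739 CPM. Esx1, an X-linked homeobox gene at chrX:137115397-137122083, lay at 98.9, 422, 331 and 401 CPM against 23.2, 20.4, 18.5 and 27.9 CPM. In all 3 genes every library had the members above the undifferentiated cells. Gal (the neuropeptide galanin), Nppc (C-type natriuretic peptide), Pcsk1n, Runx3 and Cited1 were the other genes with the largest ratios. Runx3, a Runt-domain transcription factor, was at 11.0, 45.7, 27.3 and 34.2 CPM in members against 5.81, 3.41, 0 and 0.821 CPM. Cited1, a transcriptional co-regulator, had log2 ratios of 3.59, 4.47 and 4.27 in the 7-day, 9 dpp and 14 dpp libraries. Cited1 is also a gene of Sertoli cells.

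Lower in members were genes tied to stem cell self-renewal. Id4, an inhibitor of helix-loop-helix factors that marks the stem cell fraction, was at 7.32, 1.52, 2.99 and 1.47 CPM beside 81.3, 97.1, 155 and 85.4 CPM in undifferentiated cells. Etv5, a transcription factor induced by GDNF, was at 14.6, 0, 1.50 and 0.839 CPM beside 46.5, 52.8, 67.9 and 42.7 CPM. Dusp6, a phosphatase that acts on ERK, was at 0, 1.52, 1.66 and 1.68 CPM beside 116, 109, 167 and 137 CPM. In all 3 genes the undifferentiated cells were above the members of their library. Nefm, Tcl1, Foxf1, Foxc2 and Sdc4 were the other genes with the largest ratios. The cyclin D genes went opposite ways in the 7-day, 9 dpp and 14 dpp libraries. Ccnd1 was higher in members (2.32, 2.38 and 2.14) and Ccnd2 lower (-4.35, -4.42 and -5.14). In the 2-day culture, outside the 3, Ccnd1 was at 62.2 CPM in members against 98.8 CPM.

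By list, the undifferentiated regulators beyond the 6 in the rule had 7 of 14 measured genes more than 2-fold lower in all 3 libraries and 0 higher. Of 23 differentiation regulators, 5 were more than 2-fold higher and 2 lower, beside 5.01% and 8.03% of all genes. Crabp1, which binds retinoic acid in the cytoplasm, was one of the higher genes by every library, with ratios of 1.28, 2.57 and 2.15. Of 17 retinoic acid pathway genes, 3 passed 2-fold higher and 0 lower, and Meioc, a meiosis factor, had ratios of 3.61, 3.35 and 4.05. In the cell cycle, 23 of 30 G2 and M phase genes and 19 of 28 S phase genes were above undifferentiated cells in all 3 libraries, while 3 of each were below in all 3. Of 27 meiotic prophase genes 20 were above in all 3, and of 23 piRNA and germ granule genes 16 were below in all 3. Over all 10708 genes, 3783 were above in all 3 libraries and 3362 below.

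**Figure D2:**
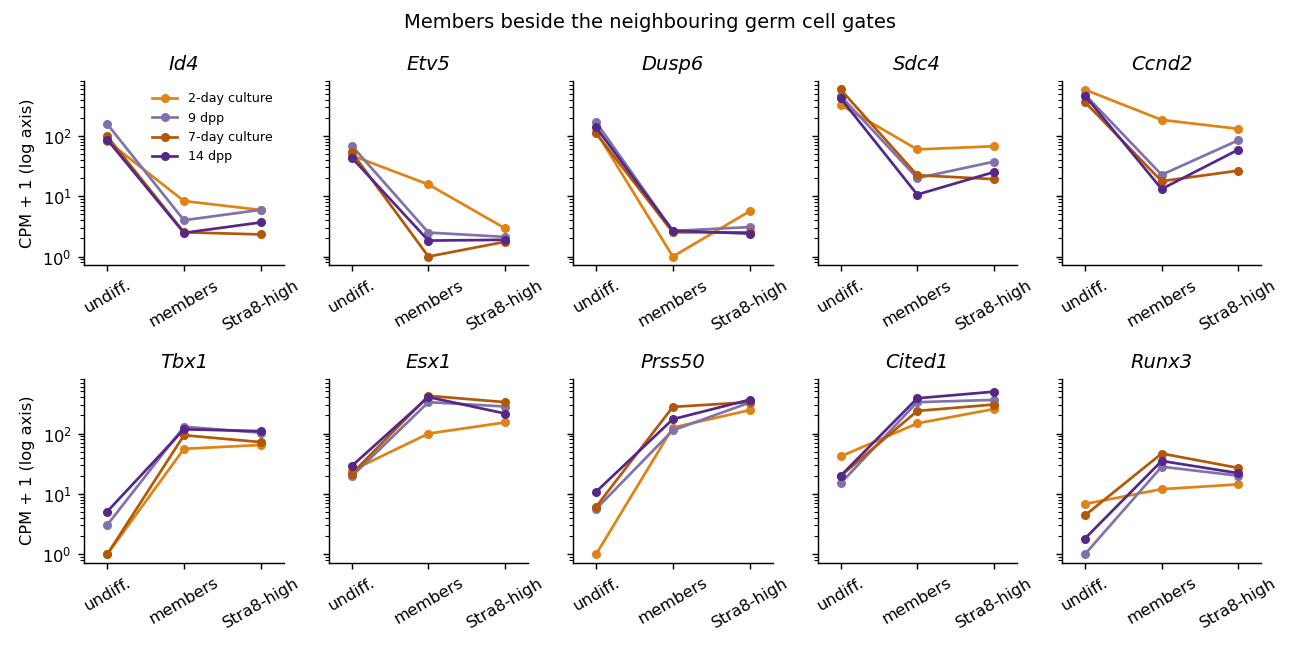
Level in CPM + 1 on a log axis of 10 genes in undifferentiated spermatogonia, members and Stra8-high germ cells, 1 line per library. Id4, Etv5, Dusp6, Sdc4 and Ccnd2 were lower in members than in undifferentiated cells in every library, and Tbx1, Esx1, Prss50, Cited1 and Runx3 were higher; Ccnd2 in the 2-day members, at 183 CPM, stood apart from the other 3 libraries.

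Fewer genes lay past 2-fold against the Stra8-high cells, though their number moved with the libraries required. Of 11854 measured genes 1, the antisense gene B930036N10Rik, was more than 2-fold higher in members in all 3 libraries (0.00844%), with log2 ratios of 1.18, 1.23 and 2.15. Of the UMIs of B930036N10Rik, 123 of 145 at 9 dpp and 158 of 237 at 14 dpp lay in 3 members. Without the members rich in other cells' UMIs its 9 dpp level was 11.3 CPM against 9.73 CPM in Stra8-high cells, short of 2-fold. More than 2-fold lower were 80 genes (0.675%). Over pairs of libraries the counts were 9 and 219 of 11487 genes without the 7-day culture and 7 and 161 of 10768 without 9 dpp. Without 14 dpp they were 12 and 74 of 10821. Fewer genes were measured in each pair of libraries than in all 3. After thinning, over 2 libraries, 142 of 6855 genes were higher (2.07%) and 516 lower (7.53%), beside 168 and 168 of 3571 (4.70% each) against undifferentiated cells, so the gap between the 2 neighbours was not seen there. Pparg, a nuclear receptor of lipid metabolism, was at 0, 0, 1.66 and 1.05 CPM in members beside 19.4, 7.57, 18.8 and 23.9 CPM. Spdya, an activator of CDK2 in meiosis, was at 7.32, 0, 3.66 and 6.08 CPM beside 18.2, 15.7, 22.6 and 42.7 CPM. Lyz2, C1qa and H2-Ab1 among the 8 genes with the lowest ratios are genes of macrophages or antigen-presenting cells, and H2-Q2, Prok2 and Stx3 were the others. Of 32 meiotic prophase genes, 21 were lower in members in all 3 libraries and 0 higher, and 23 of 30 G2 and M phase genes were higher in all 3. The piRNA and germ granule genes had 14 of 23 lower in all 3. Tex101, a germ cell surface protein gene, had ratios of -0.26, -1.27 and -0.85 and Prss50 -0.26, -1.52 and -1.07. Ccnd1 was higher in members at 0.59, 0.97 and 0.89, short of 2-fold. Over all 11854 genes, 2176 were higher in all 3 and 3001 lower.

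Stra8 itself, capped at 4 UMIs by the choice, still differed between libraries in members, at 439, 274, 96.1 and 127 CPM. With each member thinned to 3000 UMIs, a Stra8 UMI was found in 81.0% of the 2-day members (34 of 42, 65.9 to 91.4), 65.0% of the 7-day members (52 of 80, 53.5 to 75.3), 25.2% at 9 dpp (113 of 449, 21.2 to 29.4) and 31.4% at 14 dpp (143 of 456, 27.1 to 35.8). Sertoli cells thinned alike, which should lack Stra8, gave 4.91% (14 of 285), 1.26% (3 of 238), 1.17% (6 of 514) and 1.67% (5 of 300), at unthinned median depths of 2188, 6828.5, 9980 and 7212.5 UMIs. The share was thus above the Sertoli share in each library. The order among libraries is a description only: Stra8 is a gene of the choice, the limit of 4 raw UMIs admits more Stra8 in shallow barcodes, and thinning afterwards does not undo that.

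Within a library, members with and without a Stra8 UMI were next compared in genes outside the choice; the genes shown here were picked after their values were seen. Members with Stra8 had 324 against 333 CPM of Sycp1, a synaptonemal complex gene, in the 2-day culture, 474 against 607 CPM in the 7-day culture, 422 against 300 CPM at 9 dpp and 436 against 488 CPM at 14 dpp. Their summed meiotic list stood at 3882 against 3208, 4058 against 5143, 3617 against 3240 and 4084 against 4345 CPM. The counting intervals of the list overlapped in the 2-day culture (3509 to 4284 against 2532 to 4010 CPM) and at 14 dpp (3895 to 4280 against 4213 to 4480 CPM). In the 2-day culture 8 of 42 members lacked Stra8 after thinning. They did not overlap in the 7-day culture, where the list was lower in members with Stra8, or at 9 dpp, where it was higher. For Sycp1 the intervals did not overlap at 9 dpp only. For Sycp3, another synaptonemal complex gene, they did not overlap in the 7-day culture only. It was lower there in members with Stra8, at 474 (372 to 596) against 845 (660 to 1066) CPM. The members were also split by their leading marker, with all UMIs kept. Esx1 was lower in those led by Sohlh1 than in those led by Dmrtb1 at 9 dpp (268 against 403 CPM) and 14 dpp (325 against 438 CPM). It was not lower in the 7-day culture (415 against 384 CPM). Prss50 was lower in Sohlh1-led members in all 3 libraries, at 88.5 against 150, 145 against 188 and 164 against 326 CPM for 9 dpp, 14 dpp and the 7-day culture.

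RNA of other cell types was present at a low level in every library and is set beside the results it touches. Summed Sertoli markers reached 370, 330, 506 and 521 CPM in members, which is 1.26%, 1.10%, 1.45% and 1.32% of their level in Sertoli cells. Stromal markers reached 150, 175, 177 and 119 CPM, or 0.721%, 0.708%, 0.915% and 0.592% of the stromal cells' level. A gene at or under these percentages of a somatic cell's level is not told apart from background. Of the 45, 81, 449 and 456 members, 1, 2, 24 and 13 held many UMIs of another cell type, and Scrublet called 1, 0, 14 and 10 members doublets; all were kept. Without the members holding many UMIs of another cell type, the stromal markers were at 116, 45.5, 38.3 and 28.7 CPM. The Sertoli markers were then at 352, 316, 458 and 469 CPM. The stromal percentages above were thus raised by a few members. The 10 macrophage markers were all at 0 in the 2-day members. Leydig cell markers stood at 29.3, 12.2, 217 and 109 CPM, but at 9 dpp 1157 of their 1306 UMIs were in 2 members, and at 14 dpp 370 of 518 UMIs were in 2 members.

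Between culture and uncultured testis, more genes were past 2-fold lower in culture than higher, under a minimum that most genes meet through the deeper uncultured libraries. Of 9824 measured genes (at least 50 UMIs over the 4 libraries' members, without mitochondrial genes and the 20 genes of the choice), 773 were more than 2-fold higher in the 2-day pair (7.87%) and 1383 lower (14.1%). In the 7-day pair 311 were higher (3.17%) and 599 lower (6.1%). Both pairs together had 70 genes higher (0.713%) and 215 lower (2.19%). Scaling by TMM, which shifts the median of all genes by -0.14 and -0.16 on the log2 scale, turned the splits into 547 against 1643 and 174 against 731. Many counts come from low genes: among the 3552 genes of at least 50 CPM on average, 84 were higher and 165 lower for the 2-day pair, and 13 and 35 for the 7-day pair. The same 2-fold count over both pairs gave 110 lower genes in the Stra8-high cells (1.12%) and 211 in the undifferentiated cells (2.15%).

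A deficit in culture that reached across most members was that of Cdkn2a, at chr4:89274471-89294653 on the minus strand, which encodes the CDK4/6 inhibitor p16INK4a and, from another reading frame, the p53 activator p19ARF. Its level in members was 14.6, 15.2, 153 and 280 CPM, so both cultures lay far below both uncultured testes. A Cdkn2a UMI was seen in 4 of 45 and 9 of 81 cultured members, against 372 of 449 (82.9%) at 9 dpp and 404 of 456 (88.6%) at 14 dpp. Thinned to 3000 UMIs, those shares were 2.38%, 3.75%, 37.0% and 53.1%. The log2 ratio was -3.30 (-5.26 to -2.02) for the 2-day pair and -4.11 (-5.26 to -3.32) for the 7-day pair. In vivo it was higher at 14 dpp by 0.87 (0.75 to 0.99), while the cultures differed by 0.05. Undifferentiated cells (29.1, 20.4, 85.5 and 133 CPM) and Stra8-high cells (23.4, 24.0, 152 and 285 CPM) showed the same order of culture below uncultured, and Sertoli cells held at most 3.42 CPM. The 10 members richest in Cdkn2a held 7.28% and 6.98% of its UMIs at 9 dpp and 14 dpp, so many members carried it.

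Il11, a cytokine gene at chr7:4772373-4782859 on the minus strand, followed a like order at 22.0, 19.8, 288 and 122 CPM. The log2 ratio was -3.65 for the 2-day pair and -2.56 for the 7-day pair, and 14 dpp was below 9 dpp by -1.23 (-1.38 to -1.11). An Il11 UMI was found in 5 of 45, 11 of 81, 293 of 449 and 179 of 456 members. Thinned, those shares were 4.76%, 7.50%, 41.9% and 23.0%, beside 1 of 285, 0 of 238, 9 of 514 and 1 of 300 Sertoli cells. Stra8-high cells thinned alike gave 5.16%, 4.82%, 34.8% and 24.5%, and undifferentiated cells 6.45%, 3.92%, 23.7% and 17.1%. The low share in culture was thus not particular to the members. Tcea3, a transcription elongation factor, was at 18.3, 24.4, 93.6 and 64.8 CPM (-2.29 and -1.38), and the glycolytic enzyme Hk2 at 11.0, 1.52, 40.6 and 28.7 CPM, with -1.79 (-4.17 to -0.32) and -3.56 (-9.55 to -1.74). Dppa3, a maternal and germ cell factor that protects methylation in the early embryo, was at 7.32, 0, 27.1 and 7.76 CPM. Cultured members were the lower ones in each of these 4 genes, though for Dppa3 the 2-day culture and 14 dpp were close together.

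Among the 10 genes with the largest deficit in both pairs were several with no UMI in a cultured library. Gm26737, an antisense transcript, was at 0, 1.52, 53.0 and 42.6 CPM, which makes it at least 4.83-fold lower in the 2-day pair. AC163720.3 was at 0, 1.52, 52.4 and 36.1 CPM, and Olfr889 at 0, 1.52, 55.5 and 41.3 CPM. Ptcra, which encodes the pre-T-cell receptor alpha chain, was at 7.32, 6.09, 92.9 and 139 CPM, with log2 ratios of -3.50 (-6.71 to -1.81) and -4.31 (-6.40 to -3.15). Retn, Gm26772 and Rcsd1 were under 30 CPM in all 4 libraries. At 9 dpp Retn (10.8 CPM) and Rcsd1 (9.31 CPM) lay under the 2-day floor of 11.0 CPM. Their 2-day intervals reached 0.36 and 0.58, so a 2-day deficit is not shown for them. At 14 dpp 123 of 138 Retn UMIs and 45 of 46 Rcsd1 UMIs lay in 3 members. Hsd3b1 (0, 0, 48.5 and 22.2 CPM), Cyp17a1 (0, 0, 44.2 and 16.4 CPM) and Ren1 (0, 0, 44.2 and 15.9 CPM) complete the 10. Hsd3b1 and Cyp17a1 are steroidogenic enzymes of Leydig cells, and without the members holding many UMIs of another cell type Hsd3b1 was at 1.97 and 1.32 CPM, Cyp17a1 at 2.15 and 1.32 CPM and Ren1 at 2.15 and 0.219 CPM at 9 dpp and 14 dpp.

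Of the 10 genes highest in culture in both pairs, Gm10260 was far ahead, at 333, 195, 5.32 and 5.45 CPM, with log2 ratios of 5.72 and 4.92. It lies at chr13:97760072-97760632 on the minus strand, and 365 of its 531 stretches of 31 bases (68.7%) also occur in the ribosomal protein gene Rps18, so reads of the pair can be confused. Rps18 itself was at 3357, 2537, 3863 and 3441 CPM. The same order of Gm10260 was seen in undifferentiated cells (407, 318, 11.3 and 4.93 CPM) and in Sertoli cells (245, 165, 3.83 and 2.74 CPM), so it was not particular to the members. Pcgf6, a Polycomb group component that represses germ line genes in stem cells, was at 51.3, 13.7, 5.65 and 2.94 CPM (2.97 and 1.90). Rhebl1, a small GTPase related to the mTOR activator Rheb, was at 29.3, 12.2, 3.82 and 2.31 CPM (2.65 and 1.99). Undifferentiated cells held 80.3 to 122 CPM of Rhebl1, above the members in every library, and 34.9, 76.6, 62.8 and 73.9 CPM of Pcgf6, above the members in all but the 2-day culture. Ube2a, a ubiquitin-conjugating enzyme, was at 43.9, 36.5, 12.8 and 8.60 CPM, with 18 of its 24 UMIs at 7 days in 3 members and a 7-day ratio that turned from 1.97 to -0.51 with a marker minimum of 6. The chromatin remodeller Chd1 was at 25.6, 25.9, 3.66 and 7.97 CPM. Immp2l, 1700097N02Rik and Gml stayed under 30 CPM in all 4 libraries. The 2-day value of Gml is 3 UMIs, and its 2-day interval (-0.53 to 3.65) spans 0. At 7 days 14 of the 17 Gml UMIs lay in 3 members.

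The other 2 of those 10 are genes of the acute phase and of antigen presentation. Saa3, serum amyloid A, was at 289, 10.7, 2.66 and 1.89 CPM in members, and at 35647, 4109, 0 and 2.89 CPM in stromal cells. The cultured members thus held 0.811% and 0.259% of the stromal level, beside 0.721% and 0.708% for the stromal markers. Saa3 was slightly above the markers at 2 days and below them at 7 days. The 7-day order rests on few members: 88 of the 115 stromal marker UMIs there lay in 2 members. Without the members rich in other cells' UMIs the 7-day markers fell from 175 to 45.5 CPM, while Saa3 was at 11.0 CPM. Undifferentiated cells held 1610 and 140 CPM of Saa3 in the 2-day and 7-day cultures, and Stra8-high cells held 1285 and 38.8 CPM. All of these were above the members. The part of free stromal RNA in the 2-day values was not tested. H2-D1, an MHC class I gene, was at 65.9, 42.6, 5.49 and 10.1 CPM, with log2 ratios of 3.37 (2.67 to 4.46) and 1.98 (1.35 to 2.78). Its level in cultured members was 2.38% and 3.06% of that in stromal cells and 5.55% and 11.7% of that in Sertoli cells, above the share of the markers. Without the cultured members rich in other cells' UMIs H2-D1 was at 41.1 and 23.5 CPM in the cultures and 4.83 and 7.90 CPM in the uncultured testes, and 7 of its 18 UMIs at 2 days and 11 of 28 at 7 days lay in 1 member. B2m, the light chain of MHC class I, was at 110, 44.1, 31.6 and 22.6 CPM (1.77 and 0.93), or 1.85% and 1.17% of the stromal level in the cultures. Ifitm3, an interferon-induced gene at 33.0, 15.2, 6.98 and 5.87 CPM, was at 0.701% and 0.804% of the stromal level, near the markers' share. At 7 days most of the markers' share came from 2 members, so that nearness depends on them. The summed interferon list of 9 measured genes stood at 406, 300, 217 and 186 CPM, with 6 genes more than 2-fold higher and 0 lower for the 2-day pair and 3 higher and 1 lower for the 7-day pair, beside 7.87%, 14.1%, 3.17% and 6.1% of all genes. Its median of 1.17 for the 2-day pair turned to -0.38 over the genes with at least 200 UMIs. The same list was at 4538, 1583, 441 and 484 CPM in Sertoli cells, and the part of free RNA in the members' value was not tested.

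The regulators of differentiation showed little net difference. Their 23 measured genes summed to 4547, 4027, 4327 and 4481 CPM, with 2 more than 2-fold higher and 5 lower for the 2-day pair and 0 and 2 for the 7-day pair, beside 7.87%, 14.1%, 3.17% and 6.1% of all genes. The list medians were 0.04 and -0.15, against -0.06 and 0.06 over all 9824 genes. Uchl1, a deubiquitinase of spermatogonia, was at 1160, 671, 862 and 875 CPM, Crabp1 at 447, 300, 565 and 463 CPM, and Dmrt1, a DM-domain factor that controls the mitosis to meiosis decision, at 410, 309, 443 and 400 CPM. None of the 3 was past 2-fold in a pair. Esx1 was past 2-fold lower for the 2-day pair, at -1.73 (-2.35 to -1.20), and at 0.07 (-0.11 to 0.26) for the 7-day pair. An Esx1 UMI was found in 8 of 45, 68 of 81, 405 of 449 and 415 of 456 members. Thinned, those shares were 14.3%, 66.3%, 55.2% and 64.3%, against 0.702% to 2.52% in Sertoli cells. The 2-day members stood apart from the other 3 libraries in Esx1. Stra8-high cells were also lowest at 2 days, at 32.5%, 58.2%, 51.1% and 49.9% when thinned.

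Undifferentiated regulators, a list of 7 measured genes, summed to 428, 126, 216 and 194 CPM. The 2-day members were highest and the 7-day members lowest. The summed log2 ratio was 0.98 (0.70 to 1.26) for the 2-day pair and -0.62 (-0.96 to -0.29) for the 7-day pair. Ccnd2, cyclin D2, is one of the 7 and was at 183, 16.7, 21.6 and 12.2 CPM, with log2 ratios of 3.03 and 0.43 and a UMI in 23 of 45 members of the 2-day culture. Without it the list summed to 245, 110, 195 and 181 CPM, with summed ratios of 0.33 and -0.73, so Ccnd2 carried most of the 2-day excess. Foxo1, a transcription factor inactivated by AKT, was at 87.9, 33.5, 66.8 and 69.4 CPM, and Pou3f1, a POU factor of GDNF-dependent spermatogonia, at 51.3, 9.13, 40.4 and 33.5 CPM. Ccnd1, cyclin D1, was lowest in the 2-day members, at 62.2, 216, 224 and 256 CPM, with -1.83 in the 2-day pair. In Esx1 and Ccnd2 the 2-day members lay between the undifferentiated cells of all libraries and the members of the other 3. The 2-day values rest on 45 shallow members, and Egr4, one of the 6 capped genes, was at 54.9, 3.04, 12.8 and 10.7 CPM there.

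KIT signals through PI3K, AKT and mTOR to raise translation. The 34 measured genes of this list summed to 4851, 3784, 3779 and 3811 CPM, with 3 more than 2-fold higher and 1 lower for the 2-day pair and 1 and 2 for the 7-day pair, beside 7.87%, 14.1%, 3.17% and 6.1% of all genes. The list's median and sum differed in sign, at -0.03 and 0.36 for the 2-day pair and 0.20 and -0.01 for the 7-day pair. Rps6, a ribosomal protein phosphorylated downstream of mTOR, gave 2878, 1508, 1893 and 1809 CPM of the sum, and without it the sums were 1973, 2275, 1886 and 2002 CPM, with ratios of 0.07 and 0.18. Rheb, the small GTPase that activates mTOR, was at 253, 514, 366 and 393 CPM. The 7-day members were highest and the 2-day members lowest. The 15 retinoic acid genes summed to 699, 718, 871 and 853 CPM, with list medians of -0.65 and -0.39. Rec8, a meiotic cohesin induced by retinoic acid, was at 22.0, 21.3, 9.48 and 9.44 CPM, with 1.13 (-0.29 to 2.42), which spans 0, and 1.10 (0.19 to 2.07). Aldh1a3, a retinal dehydrogenase, was at 0, 0, 5.82 and 5.87 CPM, values near or under the limit that a count of 0 allows in the cultures. Of 11 DNA methylation genes, 4 were more than 2-fold lower for the 2-day pair and 1 for the 7-day pair, with none higher, beside 14.1% and 6.1% of all genes. Dnmt1, the maintenance methyltransferase, was at 80.5, 163, 127 and 163 CPM.

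Of the cell cycle lists, that of G2 and M phase differed most in sum between the libraries. The 30 genes of G2 and M phase summed to 3720, 6287, 4716 and 5623 CPM. In the 2-day pair 25 of them were below 0 and 4 were more than 2-fold lower, a share near the 14.1% of all genes, with a median of -0.39 against -0.06 over all genes. In the 7-day pair 21 were above 0, with a median of 0.12, and the summed ratio of 0.16 became 0.00 with TMM scaling. Cenpf, a kinetochore protein gene, was at 417, 750, 428 and 573 CPM, and Top2a, topoisomerase II, at 264, 406, 331 and 474 CPM. S phase genes differed little in sum, at 4196, 3956, 4161 and 4009 CPM, with 0 of 28 past 2-fold for the 7-day pair and 1 higher and 4 lower for the 2-day pair, the latter near the 14.1% of all genes. Of the 25 cyclins and CDK inhibitors, Ccnb3, a meiotic cyclin, was at 11.0, 19.8, 3.49 and 6.50 CPM, with log2 ratios of 1.42 (-0.73 to 3.40), an interval that spans 0, and 1.47 (0.55 to 2.58).

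Meiotic prophase genes already present in the members summed to 3918, 4567, 3196 and 4061 CPM over 27 genes. Sycp3 was at 655, 594, 365 and 401 CPM (0.84 and 0.57), and Smc1b, a meiotic cohesin, at 633, 729, 435 and 690 CPM. Syce2, a central element protein, was at 824, 574, 524 and 516 CPM. Past 2-fold were 2 higher and 3 lower for the 2-day pair, near the 7.87% and 14.1% of all genes, and 1 and 0 for the 7-day pair, beside 3.17% and 6.1%. For the 2-day pair the list's median of -0.09 and its summed ratio of 0.29 differed in sign. The piRNA and germ granule genes, which silence transposons, were all above 0 in the 2-day pair: 22 of 22, beside 4568 of all 9824 genes, with a median of 0.57 against -0.06 over all genes. Past 2-fold higher were 5 of them, beside 7.87% of all genes. Their sum was 3742, 2491, 2799 and 2600 CPM, and Mael, a piRNA pathway gene, was at 652, 464, 431 and 455 CPM. The summed ratio was 0.42 (0.33 to 0.51) and remained positive at 0.28 with TMM scaling. That list thus set the 2-day members apart while the other 3 libraries were close.

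The lists of the unfolded protein response and of cholesterol synthesis had opposite signs in the 2 pairs. Unfolded protein response genes, the chaperones of the endoplasmic reticulum, summed to 1757, 3478, 2584 and 2843 CPM. Of 18 genes, 4 were more than 2-fold lower and 0 higher for the 2-day pair, beside 14.1% and 7.87% of all genes, with a median of -0.59, and the median was 0.25 for the 7-day pair. Hspa5, the chaperone BiP, was at 249, 782, 432 and 505 CPM, and Calr, calreticulin, at 256, 651, 436 and 495 CPM. Cholesterol synthesis ran the other way at 1648, 842, 1069 and 1029 CPM. Of its 21 genes, 6 were more than 2-fold higher and 0 lower for the 2-day pair, and 0 higher and 3 lower for the 7-day pair, beside 7.87%, 14.1%, 3.17% and 6.1% of all genes. Fdps, which makes farnesyl pyrophosphate, was at 275, 80.7, 174 and 147 CPM, and Fdft1, squalene synthase, at 209, 82.2, 103 and 99.2 CPM. Hypoxia and glycolysis genes summed to 2654, 1840, 2463 and 2125 CPM, and Eno1, enolase, was at 91.5, 10.7, 96.9 and 41.7 CPM. The difference between the pairs was not tested for any list. The 8 measured inflammation genes, Saa3 and Il11 among them, summed to 428, 85.2, 354 and 166 CPM. Without Saa3 and Il11 the sum was 117, 54.8, 63.3 and 42.6 CPM, which turned the 7-day pair from lower to higher in culture. The immediate early list summed to 454, 621, 483 and 360 CPM, but to 430, 358, 364 and 306 CPM without the members rich in UMIs of another cell type, and 53 of 66 Fos UMIs in the 7-day culture were in 1 member. Of 24 cell death and 19 heat shock genes the summed levels kept within 1670 to 1811 and 9237 to 10923 CPM.

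**Figure D3:**
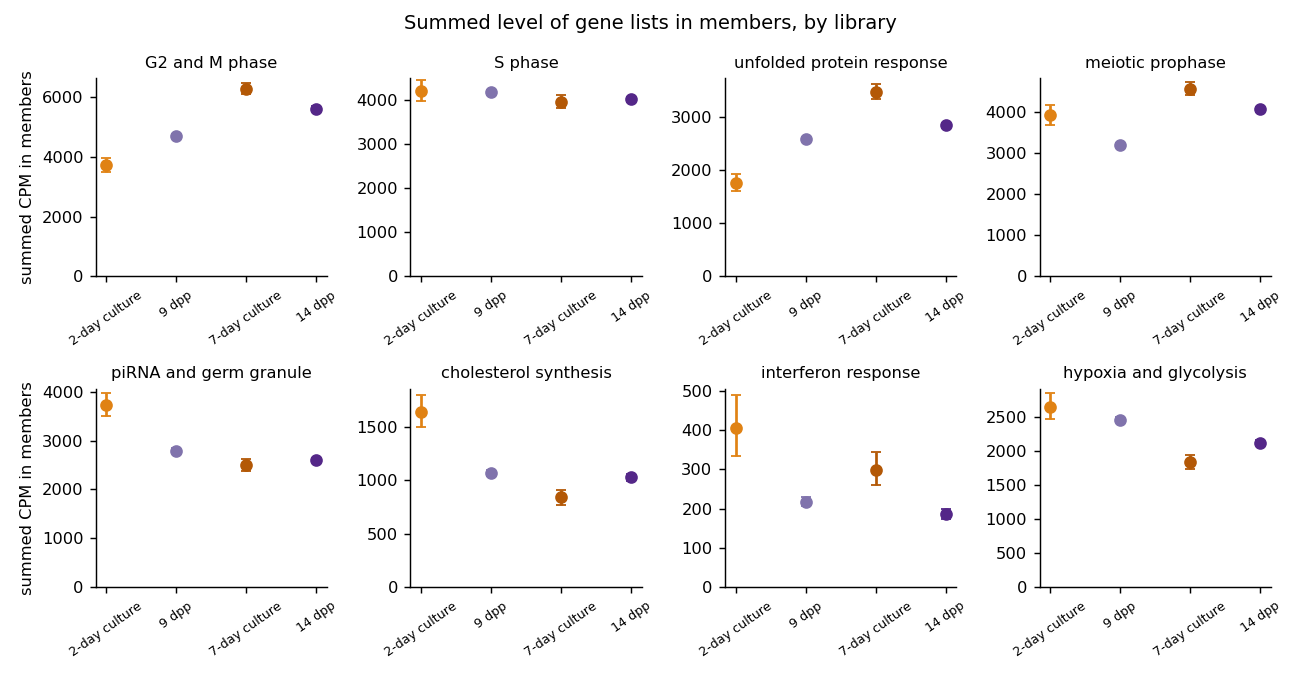
Summed level in CPM of 8 gene lists in the members of each library (each panel on its own axis from 0); points are single libraries and bars are 95% Poisson intervals of the count. In G2 and M phase and in the unfolded protein response the 2-day culture was lowest and the 7-day culture highest, at 3720 against 6287 CPM and 1757 against 3478 CPM, and cholesterol synthesis had the reverse order.

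Over time in vivo, the members of 14 dpp and 9 dpp, the deepest libraries, gave the fewest genes past 2-fold of the 4 comparisons. Of 9824 genes, 41 were more than 2-fold higher at 14 dpp (0.417%) and 214 lower (2.18%). Without the members rich in other cells' UMIs, 141 genes were lower. Markers of other cells were also lower at 14 dpp than at 9 dpp, at 109 against 217 CPM for 8 Leydig cell genes, 111 against 238 CPM for 7 myoid genes and 119 against 177 CPM for 10 stromal genes, and their part in the other lower genes was not tested. The 7-day over the 2-day culture gave 1764 higher (18%) and 1257 lower (12.8%), a comparison that shares its libraries with the pairs above. Higher in both were 19 genes (0.193%) and lower in both 90 (0.916%). Meioc, which together with Ythdc2 is needed for meiotic prophase, was at 29.3, 198, 61.5 and 138 CPM, with log2 ratios of 1.15 in vivo and 2.71 in culture. Cdkn2d, the CDK inhibitor p19INK4d, was at 36.6, 100, 28.6 and 63.1 CPM (1.12 and 1.43). Zfp367, a zinc finger gene, was at 3.66, 18.3, 4.16 and 12.2 CPM, and Rasip1 at 3.66, 18.3, 7.15 and 18.9 CPM. Meioc and Cdkn2d were higher in the older group on both sides. For Zfp367 and Rasip1 the 2-day value is 1 UMI, and the interval between cultures, -0.44 to 7.74 for both, spans 0. Rsph1, Olfr1369-ps1, BC051142, Zfp979 and Fastkd1 were the others of the 8 with the largest ratios that were not named above, all under 20 CPM.

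Listed as lower with time on both sides, by their ratios, were Gm27216 at 33.0, 3.04, 7.81 and 0.839 CPM, Fbxo32, a muscle atrophy ubiquitin ligase, at 11.0, 1.52, 30.6 and 7.76 CPM, and Lsp1 at 11.0, 0, 11.3 and 1.68 CPM. Of the Fbxo32 UMIs at 9 dpp, 112 of 184 lay in 3 members, and its interval between cultures (-8.57 to 0.79) spans 0. For Lsp1 the 2-day value is 3 UMIs, at the floor, and the upper bound of its interval between cultures (0.0086) is also above 0, so Gm27216 is the one of these 3 whose intervals lie below 0 on both sides. The remaining genes of that group, Gchfr, Fam213b, Tgif1, Slc25a15 and the Hedgehog receptor Ptch1, were under 20 CPM in all libraries. Between cultures the upper bounds of Gchfr (0.0086), Slc25a15 (0.022), Tgif1 (1.15) and Ptch1 (1.15) are above 0. Without the members rich in other cells' UMIs, Ptch1 at 9 dpp was 1.79 in place of 6.98 CPM and Lsp1 5.72 in place of 11.3 CPM. In vivo, 26 of 30 G2 and M phase genes were above 0 with a median of 0.24, and 20 of 27 meiotic genes with a median of 0.21, against a median of -0.01 over all genes. Hypoxia and glycolysis genes had 17 of 21 below 0 and 4 past 2-fold lower, beside 2.18% of all genes.

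Members of 1 library were not uniform in every gene. The 30 genes most uneven across members in both uncultured libraries were taken after their values were seen, from 6363 genes with at least 20 UMIs in each of those libraries, by the variance over the mean of members thinned to 3000 UMIs; members with many UMIs of another cell type were left out. Over all 6363 genes the median of that quotient was 1.02 in both uncultured libraries. The choice used the uncultured side of both pairs, so what follows is a description. Of the 30, 22 were more than 2-fold lower in both pairs and 0 were higher, beside 52 of the 6363 (0.817%). Their median log2 ratios were -3.13 and -1.98, against -0.06 and 0.06. The genes also had to reach 20 UMIs in the uncultured libraries, and the neighbours' values that follow share those libraries and that choice. In Stra8-high cells 20 of the 30 were more than 2-fold lower in both pairs, beside 46 of 6363 (0.723%). In undifferentiated cells it was 10 of the 30, beside 45 (0.707%).

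AC160336.1, a long intergenic RNA at chr14:44544055-44637201 on the minus strand, was at 172, 181, 2055 and 1567 CPM. It was found in 26 of 45, 47 of 81, 442 of 449 and 451 of 456 members. Olfr655, annotated as an olfactory receptor gene at chr7:104595301-104601779, was patchy. Its level was 7.32, 30.4, 186 and 121 CPM, and at 9 dpp 956 of its 1118 UMIs (85.5%) were in 10 of 449 members, 254 of them in a single member. Ptcra was found in 120 members at 9 dpp and 131 at 14 dpp. Members with at least 10 UMIs of Olfr655 numbered 12 at 9 dpp, as did those of Ptcra, with 0 in common. At 14 dpp they numbered 16 and 22 with 3 in common. Members with any UMI of both genes numbered 34 at 9 dpp and 30 at 14 dpp. The overlap expected by chance was not calculated, and these small numbers do not show separate groups of members.

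Other uneven genes were protein-coding and lower in both cultures. Loxl2, a lysyl oxidase that cross-links collagen, was at 54.9, 60.9, 465 and 220 CPM. P3h3, a prolyl hydroxylase of collagen, was at 29.3, 24.4, 278 and 310 CPM, and Tmem267 at 36.6, 38.0, 398 and 264 CPM. Cultured members were low in each of the 3. Lepr, the leptin receptor, was at 11.0, 22.8, 159 and 102 CPM, and Phkg1, a glycogen phosphorylase kinase subunit, at 25.6, 7.61, 80.0 and 33.6 CPM. Gm13075, an antisense gene, was at 18.3, 21.3, 286 and 137 CPM. Spata7 went a different way at 80.5, 119, 37.9 and 497 CPM, with 228 UMIs at 9 dpp and 2368 at 14 dpp. Of the 30 genes, AC160336.1, Gm45184, Malat1 and Mirt1 are annotated as long intergenic RNAs and B930036N10Rik, Gm13075, Gm16222 and Gm26737 as antisense genes. Whether the counting used strand is not given in the sources used here, so reads of antisense genes and of the genes they overlap cannot be told apart.

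**Figure D4:**
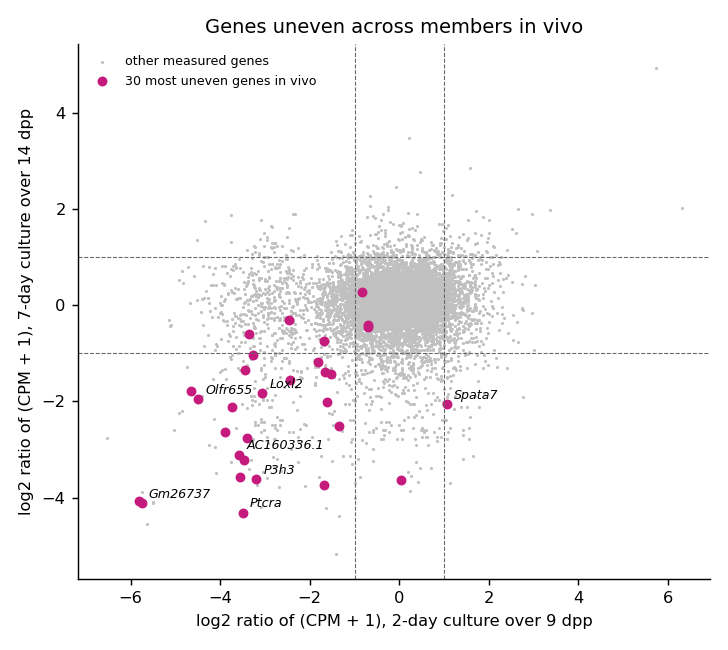
Log2 ratio of CPM + 1 in the 2-day pair (horizontal) against the 7-day pair (vertical) for every measured gene; the 30 genes most uneven across uncultured members are in colour and dashed lines mark 2-fold. Of the 30, 22 lie in the lower left corner past 2-fold in both pairs, while the other genes centre near -0.06 and 0.06.

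**Figure D5:**
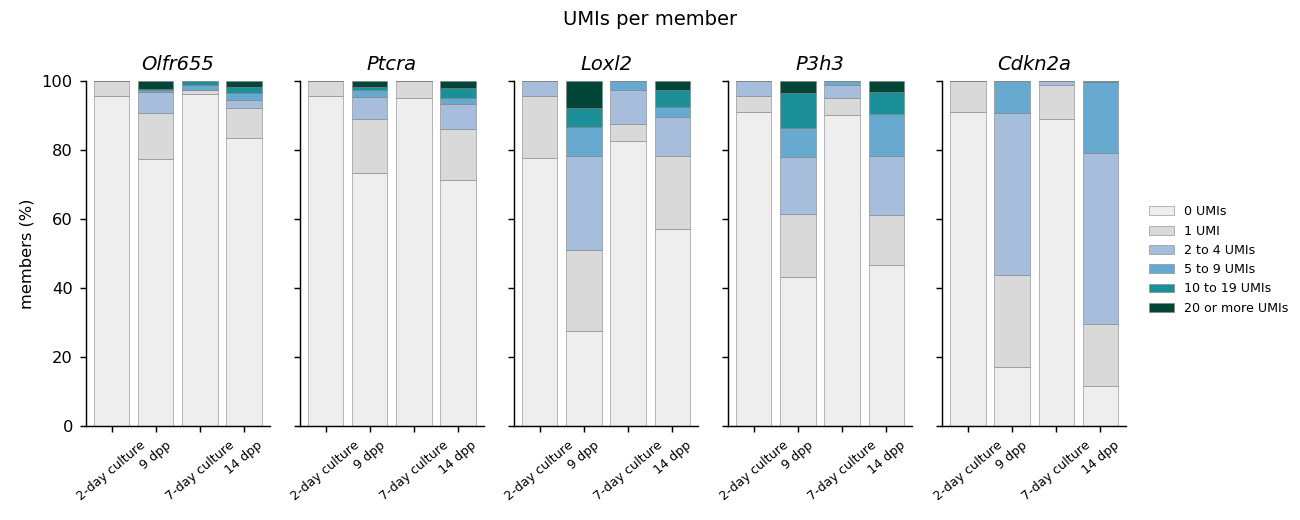
Percentage of members of each library by the number of UMIs they held of 5 genes; depth differs between libraries. Cdkn2a was spread over most uncultured members (82.9% and 88.6% with a UMI), whereas Olfr655 and Ptcra had their UMIs in a small part of the members, with a few holding 20 or more.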

How the data were processed

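Single cells of 4 mouse testis libraries, 1 per group, were counted with the Chromium Single Cell 3′ v2 chemistry, per the labels. The deposited matrices hold raw counts of UMIs per gene and barcode, made with Cell Ranger 3.0.2 on mm10, per the submitters' processing notes; cell calling, annotation and strand settings are not given in the sources used here. Of 31017 symbols, 30907 were found in GENCODE M21 and 110 were not; that annotation and RefSeq gave positions and promoters.

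The members and lists were chosen with earlier results of these data known. UMIs of members were summed per library and divided by their total (CPM), and groups were compared by the log2 ratio of CPM + 1 over the genes with at least 50 UMIs. No test was made, since each group is 1 library. Named genes are the 10 higher and 10 lower in both pairs with the largest smaller ratio, 8 and 8 likewise for the time comparisons and against each neighbour, and in each of the 20 lists the 4 genes with the most UMIs and those past 2-fold in both pairs or both time comparisons; not every gene so named is reported here. Plzf, Gm14490, Iho1 and Mx2 were not found under these names. Intervals (Clopper-Pearson for shares, exact Poisson for levels, exact binomial for ratios of levels, Katz for ratios of shares) are at 95% and, like the limit of 3 UMIs for a count of 0, cover counting error only. Sertoli and stromal cells were barcodes with at least 1% of UMIs in their markers and no germ cell UMI. Doublets were kept; Scrublet (scanpy 1.11.5, expected rate 6%) was an alternative. Others were the added value, the UMI minimum, TMM (edgeR 4.0.16), thinning, stricter limits and leaving out members or libraries. Python 3.11.15, numpy 2.4.6, scipy 1.17.1 and pandas 2.3.3 were used, and the calculations were checked on simulated data.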

Additional observations from a re-analysis of the deposited data

Results flagged for a closer look

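In 5 gene lists the counting interval of the members' summed log2 ratio lay above 0 in one pair and below 0 in the other, the pairs being the 2-day culture over 9 dpp and the 7-day culture over 14 dpp. The values given are the 7-day minus the 2-day ratio; with 1 library per group the difference was not tested. The undifferentiated regulators gave -1.60, or -1.06 without Ccnd2, which held most of the 2-day excess, and cholesterol synthesis gave -0.91. The unfolded protein response gave 0.85 and G2 and M phase 0.50. Oxidative stress genes gave -0.34. For cholesterol synthesis and the unfolded protein response, undifferentiated and Stra8-high cells had the same order of libraries as the members. With TMM scaling the G2 and M phase ratios were -0.48 (2-day) and 0.00 (7-day), the oxidative stress ratios 0.04 and -0.32, so the gap between the pairs was little changed while 1 pair of each list came close to 0.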

How the results depend on the processing

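No paired analysis was possible because each group is 1 library, so nothing pairs samples and there is no replicate to leave out; leaving out a library was possible only against the neighbours. Each result moved, where it did, with the choices below; the cause was not tested beyond the fewer genes or members that a choice leaves. Of the share ratios, no thinning gave -3.38 in the 2-day pair, -1.78 in the 7-day pair and 1.02 between cultures; a marker minimum of 6 gave 0.70 in the 7-day pair and -2.89 in vivo, from 1 to 5 barcodes a library; thinning to 5000 UMIs gave 0.062 in vivo. Genes past 2-fold in the 2-day pair (773 higher, 1383 lower) became 280 and 461 with 10 CPM added, 2145 and 2749 with at least 1 UMI, 251 and 606 with at least 200, 48 and 146 with members chosen after thinning, and 84 and 165 at 50 CPM or more; a marker minimum of 6 gave 2129 lower. In the 7-day pair (311 and 599) they became, in the same order, 37 and 94, 1177 and 1527, 56 and 165, 66 and 130, and 13 and 35; a marker minimum of 6 gave 618 and 1140, and TMM 174 higher. In vivo (41 and 214) the counts were 7 and 33 with 10 CPM added, 65 higher with 0.1 added, 105 and 482 with at least 1 UMI, 17 and 64 with at least 200, and 7 and 16 at 50 CPM or more; thinning gave 24 lower, and leaving out members rich in other cells' UMIs 141 lower. Between cultures (1764 and 1257) they were 763 and 575, 3293 and 2622, 934 and 469, 245 and 172, and 356 and 147 in the order of the 2-day pair.

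Against undifferentiated cells (536 and 860) the counts were 204 and 402 with 10 CPM added, 168 and 168 after thinning (2 libraries), and 151 and 127 at 50 CPM or more; at least 1 UMI gave 1313 lower and at least 200 gave 368 lower. Leaving out each library in turn gave 624 to 756 higher and 770 to 1000 lower. Against Stra8-high cells (1 and 80) they were 6 and 156 with 0.1 added, 0 and 3 with 10 added, 142 and 516 after thinning (2 libraries), 7 and 251 with a marker minimum of 6, and 0 and 0 at 50 CPM or more. Higher genes there numbered 6 with each cell weighted equally, 2 without Scrublet calls and 2 at 10% mitochondrial UMIs; at least 200 UMIs gave 38 lower, and leaving out each library gave 7 to 12 higher and 74 to 219 lower. The interferon list's median of 1.17 in the 2-day pair was -0.38, and -1.17 between cultures was 0.40, over its genes with at least 200 UMIs and over those of at least 50 CPM. With a marker minimum of 6, Ube2a in the 7-day pair was -0.51, Fos -0.053, Sdc4 -3.41 and Hdhd3 -2.21; Fbxo32 in the 2-day pair was 0.24 and Runx3 0.078; Fastkd1 between cultures was -0.15 and Ldha 2.90; Hsd3b1 in vivo was 4.01, Cyp17a1 2.78 and Ren1 3.47. Hsd3b1 was also 0.75 in vivo at 10% mitochondrial UMIs, Olfr889 was -4.21 between cultures after thinning, and Fos was -0.13 between cultures without members rich in other cells' UMIs. Over the values of single genes and lists, 6327 moved within counting error and 663 by more. The 18 values given above, each at or past 2-fold at the main setting, changed sign. Sign changes of smaller values were not counted apart. Depth limits the cultures more than the uncultured testes. The 2-day members hold 273127 UMIs in all, and a gene under 11.0 CPM there is not distinguished from 0.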
